A study of Homo sapiens with 4 samples.

Results

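The large subunit (60S) assembly factors are proteins that process, fold and escort the precursor of the large ribosomal subunit from the nucleolus to the cytoplasm. Their genes were taken as a list of 58 gene names, each of which matched exactly 1 of the 51103 genes measured. The transcripts were measured in AGS cells, a line established from a human gastric adenocarcinoma, by sequencing of polyadenylated RNA. One group, FGF2, had received recombinant human fibroblast growth factor 2 at 20 ng/mL for 24 h, and the other was labelled NC, with no further explanation. The protocol of the NC libraries describes the same FGF2 addition, so the treatment of NC cells is unclear from the labels. Both groups were grown in the same serum-containing medium and came from the same line. In bulk RNA, fewer cells that express a gene and less RNA per cell cannot be told apart. The title of the series names ribosome biogenesis, so a direction in these genes is not independent evidence.

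Ribosome assembly starts in the nucleolus, where RNA polymerase I makes one long precursor that is cut into the rRNAs of both subunits. The pre-60S particle forms around the 28S and 5.8S sequences, takes up the 5S rRNA with its bound ribosomal proteins, and is remodelled by helicases, GTPases and AAA ATPases as its factors leave in order. Export adaptors then carry it through the nuclear pore, and the last factors are removed in the cytoplasm before the subunit can join a 40S subunit. Growing cells keep this pathway at high activity, and MYC and growth factor signalling are known to raise the transcription of many of its genes.

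Each group had 2 libraries, of 13790335 and 27598608 counts for FGF2 and of 14073340 and 27325697 counts for NC. In each group library 1 exceeded library 2 at only 2 genes with a count, of 22043 for FGF2 and 22485 for NC, and at 0 of the 58 factors. For the 56 factors with at least 200 counts in NC library 2, library 1 held between 45.1% and 54.5% of the count of library 2 in the FGF2 group and between 45.1% and 56.7% in the NC group. Library 2 thus held at least the count of library 1 at nearly every gene, so the libraries of a group are not separate replicates. They were counted as 1 sample (n = 1 per group). Whether the further reads of library 2 came from the same library or from another one was not tested. No difference below has a check by separate replicates, and none was tested. As the only gauge of noise, reads were parted into 2 disjoint sets per group, library 1 and library 2 less library 1. A gene was called higher when both FGF2 read sets stood 1.2-fold or more above both NC sets, and lower in the reverse case.

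The identity of the cells was checked against markers, and the outcome was mixed. The keratin genes of simple epithelia were abundant, with KRT8 at 191 FPKM in FGF2 library 2 and 270 FPKM in NC library 2, and KRT18 at 199 and 193 FPKM. KRT7 stood at 137 FPKM in FGF2 library 2 and 151 FPKM in NC library 2, and KRT19 was higher with FGF2, at 47.6 FPKM against 27.3 FPKM in NC library 2. The epithelial adhesion genes EPCAM (0.518 and 1.19 FPKM) and CDH1 (0.0235 and 0.118 FPKM) were near 0. Of 4 blood markers, 3 were at 0 in every library, and the 3 endothelial markers summed to between 0.288 and 0.361 FPKM over the 4 libraries. Of 7 fibroblast markers, FAP and COL1A2 were at 0 in every library and the summed level lay between 59.5 and 60.1 FPKM in the FGF2 libraries and between 101.7 and 104.7 FPKM in the NC libraries, nearly all of it from COL1A1 (59.4 FPKM in FGF2 library 2 and 104 FPKM in NC library 2). This list was thus lower in the FGF2 libraries, and its part in the results below was not tested.

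Transcripts of most 60S assembly factors were modestly more abundant in the FGF2 sample. Of the 58 factors, 42 (72.4%) were called higher, 0 were called lower and 16 were neither. Among all 15030 genes kept by the filter on low counts, the same rule called 12.1% higher and 16.3% lower. Scaling by total count in place of TMM lowers every log2 fold change by 0.09. It gave 1295 higher and 3050 lower calls over all genes, against 1824 and 2443 with TMM, and 35 higher and 0 lower among the factors. The median log2 fold change of the factors was 0.47 (1.38-fold), against -0.00 over all genes kept. A single factor, NOP2, had a value below 0, and the middle 50% of the factors lay between 0.37 and 0.54. The factors are abundant, and 55 of the 58 averaged 500 or more counts over the read sets. Of the 5745 genes at that level, 14.9% were called higher and 8.91% lower, with a median of 0.07.

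**Figure D1:**
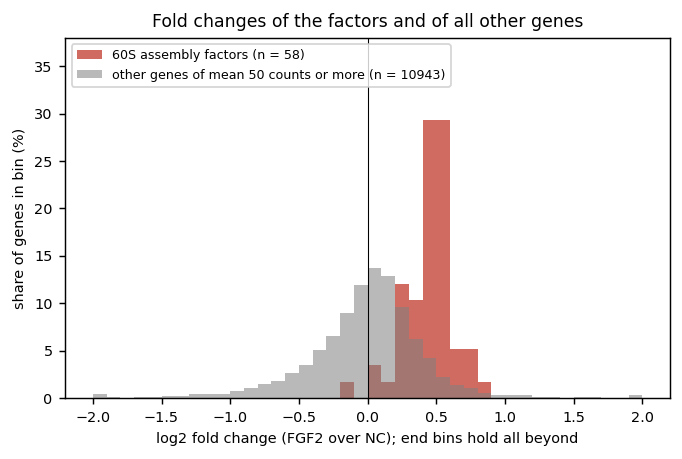
Share of genes (y axis, %) in bins of log2 fold change, FGF2 over NC (x axis), for the 58 assembly factors (red) and 10943 other genes averaging 50 or more counts (grey). The factors form a narrow peak around their median of 0.47, while the other genes are spread around 0.

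The summed level of the 58 factors was 2543 and 2526 FPKM in FGF2 libraries 1 and 2, against 1880 and 1891 FPKM in NC libraries 1 and 2. NPM1 alone gave 26.0% and 26.6% of that sum in the FGF2 libraries and 24.7% and 25.03% in the NC libraries. The other 57 factors summed to 1881 and 1853 FPKM in the FGF2 libraries and 1416 and 1417 FPKM in the NC libraries, so the difference did not rest on NPM1. As a share of all counts, the 58 genes took 1.09% and 1.08% of the FGF2 libraries and 0.813% and 0.816% of the NC libraries. Across the 58 factors the log2 fold change had a Spearman correlation of 0.11 with the FPKM level in NC library 2 and of -0.10 with exon length, values given as a description over genes of the same libraries.

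**Figure D2:**
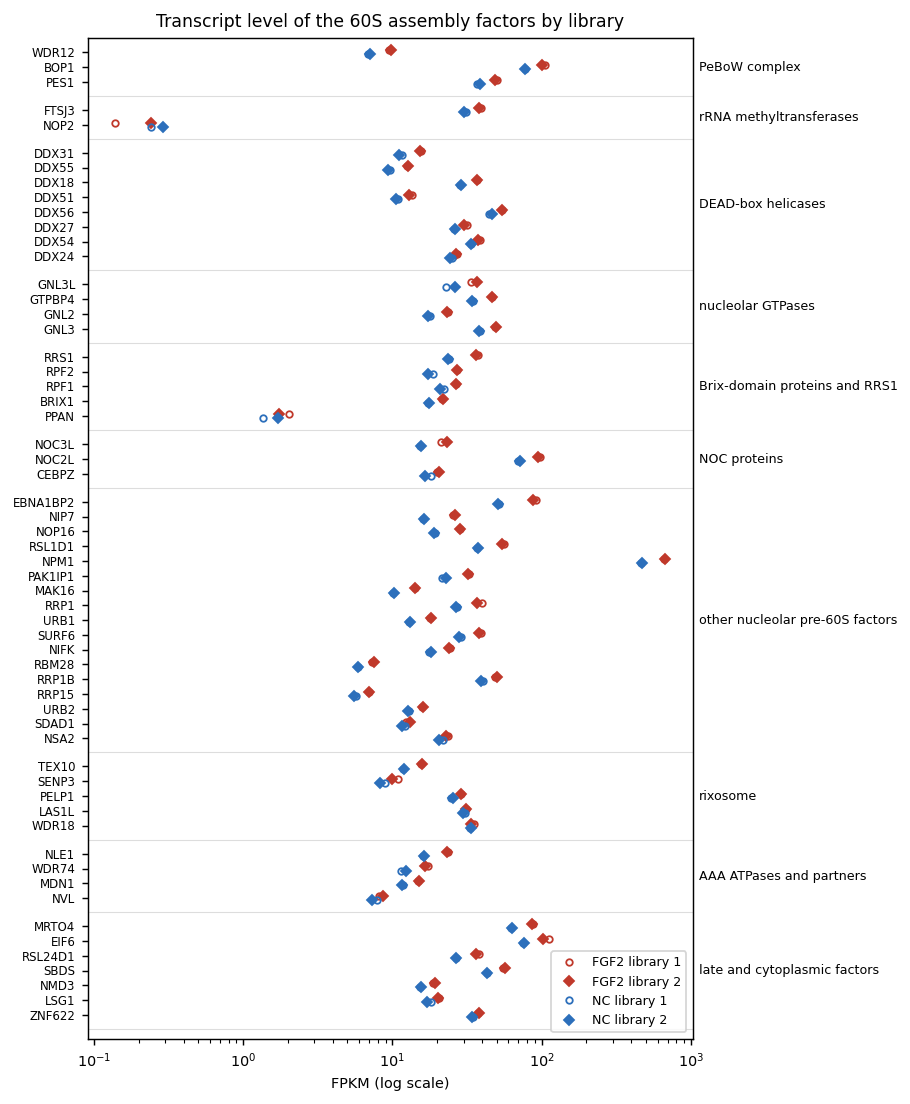
Deposited FPKM (x axis, log scale) of each of the 58 factors (rows, grouped by role) in the FGF2 libraries (red) and the NC libraries (blue), with open circles for library 1 and filled diamonds for library 2. Red points lie right of blue ones for all but a few genes, and NOP2 and PPAN stand far left of the others.

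Promoter windows of 3 factors with high fold changes are shown with the motifs searched for. The windows come from RefSeq on GRCh38.p14 and run from 250 bases before to 50 after the annotated start, and 50 of the 58 factors had one. Those shown are the highest in fold change with an E-box hexamer alone (EBNA1BP2, chr1:43172521-43172820, minus strand), with both motifs (NOC3L, chr10:94362890-94363189, minus strand) and with the ETS motif alone (NIP7, chr16:69339522-69339821, plus strand). Capitals mark CACGTG, the E-box hexamer that MYC with MAX can bind, and CCGGAAG, an ETS core, read here on the other strand as CTTCCGG.
EBNA1BP2: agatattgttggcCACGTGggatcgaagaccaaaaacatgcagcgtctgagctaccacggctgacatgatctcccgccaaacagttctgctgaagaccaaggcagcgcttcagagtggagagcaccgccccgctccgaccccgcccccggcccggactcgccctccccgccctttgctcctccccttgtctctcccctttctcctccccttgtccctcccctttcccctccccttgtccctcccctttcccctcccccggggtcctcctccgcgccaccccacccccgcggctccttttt
NOC3L: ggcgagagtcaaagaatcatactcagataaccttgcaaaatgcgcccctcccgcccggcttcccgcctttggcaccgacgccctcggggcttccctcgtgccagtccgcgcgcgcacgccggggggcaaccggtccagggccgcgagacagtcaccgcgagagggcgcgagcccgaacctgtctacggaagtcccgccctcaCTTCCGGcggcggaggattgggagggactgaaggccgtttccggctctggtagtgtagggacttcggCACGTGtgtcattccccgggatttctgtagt
NIP7: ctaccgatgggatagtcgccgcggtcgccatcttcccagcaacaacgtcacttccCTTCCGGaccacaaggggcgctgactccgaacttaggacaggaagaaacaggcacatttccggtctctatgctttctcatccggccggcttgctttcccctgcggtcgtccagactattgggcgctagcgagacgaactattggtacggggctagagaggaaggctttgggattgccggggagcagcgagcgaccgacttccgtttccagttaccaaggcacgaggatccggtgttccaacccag
CACGTG begins at base 14 of the EBNA1BP2 window and at base 270 of the NOC3L window, and CTTCCGG begins at base 203 of the NOC3L window and at base 56 of the NIP7 window.

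Searched on both strands, CACGTG was found in 15 of the 50 factor windows (30.0%), against 10.1% of 9979 windows of kept protein-coding genes and 7.43% of all 27305 windows. CCGGAAG was found in 22 (44.0%), against 19.4% and 10.7%. At least 1 of the motifs stood in 33 of the 50 windows (66.0%), against 27.5% of the windows of kept protein-coding genes, and 4 windows held both with 0 overlaps. Median GC content was 63.3% in the factor windows and 65.7% in those of kept protein-coding genes. The 15 factors with CACGTG had 11 called higher and a median log2 fold change of 0.52, and the 35 without it had 23 and 0.44. The 22 with CCGGAAG had 16 called higher and a median of 0.48, and the 28 without it had 18 and 0.45. No difference between factors with and without a motif was tested. The palindromic sequence TCGCGAGA was in 2 factor windows (4.0%, against 2.44% of those of kept protein-coding genes) and TATAAA in 1 (2.0%, against 5.11%). A match shows only that these letters are present.

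The PeBoW complex, which is needed to cut the spacer between the 5.8S and 28S rRNAs, consists of PES1, BOP1 and WDR12. BOP1 (ENSG00000261236, chromosome 8, 144262102 to 144291370), the scaffold of the complex, was at 106.0 and 101.1 FPKM in the FGF2 libraries and 77.5 and 78.0 FPKM in the NC libraries. PES1, the pescadillo protein gene, was at 50.3 and 49.0 FPKM in the FGF2 libraries and 36.9 and 38.4 FPKM in the NC libraries. WDR12 was at 9.45 and 9.83 FPKM in the FGF2 libraries and 6.87 and 7.10 FPKM in the NC libraries. All 3 genes were called higher. Their read sets did not overlap between the groups, as for 55 of the 58 factors and 32.1% of all genes kept in that direction. Their log2 fold changes were 0.46 for BOP1 (95% counting interval 0.42 to 0.50), 0.44 for PES1 (0.38 to 0.49) and 0.56 for WDR12 (0.47 to 0.65). The ratio of BOP1 to PES1 by FPKM was 2.11 and 2.06 in the FGF2 libraries and 2.10 and 2.03 in the NC libraries. The transcripts of this pair thus kept about the same proportion. That of WDR12 to PES1 was 0.188 and 0.201 in the FGF2 libraries and 0.186 and 0.185 in the NC libraries.

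The counting intervals here and below are exact binomial intervals of the counts of both libraries 2. They hold only the error of counting and so understate the noise. Between the disjoint read sets of a group the chi-square per factor averaged 6.20 (median 2.41) for FGF2 and 3.81 (median 1.81) for NC. Counting error alone gives an average of about 1 and a median well below 1. Over all genes kept the chi-square averaged 3.97 (median 1.26) for FGF2 and 3.26 (median 1.23) for NC. Over genes with 500 or more counts it averaged 6.45 (median 1.69) for FGF2 and 4.63 (median 1.60) for NC.

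Among the genes that act on nucleolar particles without a place in the smaller groups, 15 of 17 were called higher, with a median log2 fold change of 0.54. EBNA1BP2 (ENSG00000117395, chromosome 1, 43164175 to 43270936), homologue of the yeast factor Ebp2, was at 91.2 and 87.1 FPKM in the FGF2 libraries and 51.8 and 51.1 FPKM in the NC libraries. It had the highest value of the 58, a log2 fold change of 0.86 (0.81 to 0.91), with 0.91 from library 1 and 0.80 from the second read set. NPM1 (ENSG00000181163, chromosome 5, 171387116 to 171411137), which encodes nucleophosmin, an abundant nucleolar chaperone, was at 662.4 and 673.0 FPKM in the FGF2 libraries and 463.9 and 473.2 FPKM in the NC libraries. NPM1 was the most abundant factor by FPKM in every library. Its log2 fold change was 0.59 (0.58 to 0.61) with 0.61 and 0.58 from the read sets. The files list 45 pseudogenes of NPM1, which together held 0.671% of its count in FGF2 library 2 and 0.756% in NC library 2.

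RRP1B, a nucleolar paralogue of RRP1, was at 49.0 and 50.5 FPKM in the FGF2 libraries and 40.4 and 39.4 FPKM in the NC libraries (log2 fold change 0.44, 0.40 to 0.49). RRP1 was at 39.7 and 36.9 FPKM in the FGF2 libraries and 27.1 and 26.6 FPKM in the NC libraries (0.56, 0.49 to 0.63). Both were called higher, and the ratio of RRP1B to RRP1 was 1.23 and 1.37 in the FGF2 libraries and 1.49 and 1.48 in the NC libraries. NSA2, whose yeast homologue is a pre-60S factor, was lowest of these 17 at 23.65 and 22.8 FPKM in the FGF2 libraries and 21.8 and 20.4 FPKM in the NC libraries (0.25, 0.17 to 0.32). NSA2 met neither bound, and 58.7% of its exon bases are shared with genes of the other strand, which leaves its level uncertain. SDAD1, the other gene that was not called, stood at 0.26, with 0.11 and 0.43 from the read sets. The remaining 11 of the 17, which were all called higher, were NIP7, NOP16, RSL1D1, PAK1IP1, MAK16, URB1, SURF6, NIFK, RBM28, RRP15 and URB2, with log2 fold changes between 0.42 (URB2) and 0.77 (NIP7). NIFK, which binds the proliferation antigen Ki-67, was at 24.2 and 24.0 FPKM in the FGF2 libraries and 17.7 and 18.3 FPKM in the NC libraries. The full values of RRP1 and NIFK are given after they were seen.

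The Brix-domain family binds rRNA in early particles, and RPF2 with its partner RRS1 loads the 5S rRNA particle. RRS1 (ENSG00000179041, chromosome 8, 66429028 to 66430733) was at 37.7 and 36.5 FPKM in the FGF2 libraries and 24.0 and 23.5 FPKM in the NC libraries. RPF2 (ENSG00000197498, chromosome 6, 110982015 to 111028263) was at 26.9 and 27.1 FPKM in the FGF2 libraries and 18.7 and 17.5 FPKM in the NC libraries. From libraries 2 these partners had log2 fold changes of 0.72 for RRS1 (0.61 to 0.83) and 0.72 for RPF2 (0.64 to 0.80). The read sets gave 0.75 and 0.70 for RRS1 and 0.62 and 0.83 for RPF2. RRS1 and RPF2 ranked 3 and 4 of the 58. RPF1 was at 26.9 and 26.8 FPKM in the FGF2 libraries and 22.25 and 21.0 FPKM in the NC libraries (0.44, 0.32 to 0.56). BRIX1, at 21.6 and 22.0 FPKM in the FGF2 libraries and 17.3 and 17.7 FPKM in the NC libraries (0.40, 0.32 to 0.48), was called higher as well. PPAN was low, at 2.02 and 1.73 FPKM in the FGF2 libraries and 1.35 and 1.71 FPKM in the NC libraries. It showed no direction, with 0.68 from library 1 and -0.47 from the second read set, and it shares 59.8% of its exon bases with P2RY11 and the readthrough gene PPAN-P2RY11 on the same strand. PPAN-P2RY11 had 0 counts in every library.

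The NOC proteins travel with maturing particles from the nucleolus into the nucleoplasm. NOC2L (ENSG00000188976, chromosome 1, 944204 to 959309), which is also known as an inhibitor of histone acetyltransferases, was at 97.3 and 94.3 FPKM in the FGF2 libraries and 69.9 and 72.0 FPKM in the NC libraries. NOC3L was at 21.1 and 23.3 FPKM in the FGF2 libraries and 15.4 and 15.6 FPKM in the NC libraries. CEBPZ, homologue of yeast Noc1, was at 19.9 and 20.4 FPKM in the FGF2 libraries and 18.1 and 16.45 FPKM in the NC libraries. NOC2L (0.47, 0.44 to 0.51) and NOC3L (0.66, 0.58 to 0.75) were called higher. CEBPZ stood at 0.40 (0.30 to 0.49) but at 0.23 from library 1 and 0.59 from the second read set, and met neither bound. It shares 23.2% of its exon bases with genes on the opposite strand.

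Both rRNA methyltransferases were measured at very different levels. FTSJ3, homologue of the yeast 2'-O-methyltransferase Spb1, was at 39.4 and 37.9 FPKM in the FGF2 libraries and 31.1 and 30.4 FPKM in the NC libraries, and was called higher (0.40, 0.34 to 0.46). It shares 16.8% of its exon bases with PSMC5 on the opposite strand. PSMC5 had 4670 counts in FGF2 library 2 and 4239 in NC library 2. NOP2 (ENSG00000111641, chromosome 12, 6556863 to 6568691), a 5-methylcytosine methyltransferase of 28S rRNA, had 9 and 31 counts with FGF2 and 16 and 37 counts in NC. Its log2 fold change of -0.18 (-0.92 to 0.54) showed no direction. NOP2 shares 54.4% of its exon bases with a gene on the same strand, AC006064.6, which had 0 counts in every library. The deposited count of NOP2 is therefore uncertain.

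DEAD-box helicases unwind stretches of pre-rRNA and help factors and small nucleolar RNAs to leave. Of 8 helicase genes, 4 were called higher and 4 were neither, with a median log2 fold change of 0.36 and all 8 values above 0. DDX31 was highest, at 15.6 and 15.3 FPKM in the FGF2 libraries and 11.6 and 11.2 FPKM in the NC libraries (0.54, 0.45 to 0.63). DDX56 was the most abundant, at 54.3 and 54.5 FPKM in the FGF2 libraries and 44.2 and 46.2 FPKM in the NC libraries (0.32, 0.27 to 0.38), and just missed the bound, with its lower FGF2 read set 1.19-fold above its higher NC read set. DDX24 was lowest, at 27.0 and 26.5 FPKM in the FGF2 libraries and 25.3 and 24.4 FPKM in the NC libraries (0.21, 0.15 to 0.26). DDX55 (0.52), DDX18 (0.46) and DDX51 (0.39) were the others called higher, and DDX27 (0.29) and DDX54 (0.23) met neither bound. DDX51, the last of those called, had a lower FGF2 read set 1.21-fold above its higher NC read set.

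The nucleolar GTPases act as checkpoints that hold particles until folding is complete. GTPBP4, homologue of yeast Nog1, was at 46.3 and 46.8 FPKM in the FGF2 libraries and 34.6 and 34.5 FPKM in the NC libraries. GNL3, which encodes nucleostemin, a protein abundant in stem and cancer cells, was at 48.9 and 49.4 FPKM in the FGF2 libraries and 38.8 and 37.9 FPKM in the NC libraries. GNL2, homologue of yeast Nog2, was at 23.7 and 23.3 FPKM in the FGF2 libraries and 17.9 and 17.3 FPKM in the NC libraries. All of these, and GNL3L, were called higher, with log2 fold changes from libraries 2 of GNL3 at 0.47 (0.40 to 0.53), GNL2 at 0.52 (0.45 to 0.59), GTPBP4 at 0.53 (0.48 to 0.58) and GNL3L at 0.59 (0.50 to 0.68). GNL3L, the paralogue of GNL3, was at 33.5 and 37.1 FPKM in the FGF2 libraries and 22.9 and 26.15 FPKM in the NC libraries. Without NC library 2 the log2 fold change was 0.77 for GNL3L and 0.43 for GNL3, and without FGF2 library 2 it was 0.45 for GNL3L and 0.46 for GNL3.

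The AAA ATPases MDN1 and NVL use ATP to pull factors off the particle, and NLE1 and WDR74 are among the proteins they act on. NLE1 was at 23.4 and 23.1 FPKM in the FGF2 libraries and 16.1 and 16.4 FPKM in the NC libraries (0.58, 0.51 to 0.66). MDN1, a very large protein, was at 14.8 and 15.01 FPKM in the FGF2 libraries and 11.8 and 11.6 FPKM in the NC libraries (0.46, 0.41 to 0.51). WDR74, a target of NVL, was at 17.25 and 16.6 FPKM in the FGF2 libraries and 11.4 and 12.4 FPKM in the NC libraries (0.51, 0.41 to 0.61). These 3 were called higher. NVL was at 8.14 and 8.60 FPKM in the FGF2 libraries and 7.84 and 7.33 FPKM in the NC libraries, and its value of 0.32 (0.19 to 0.44) came with 0.15 and 0.49 from the read sets, so it met neither bound.

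The rixosome, which cuts the second internal spacer of the pre-rRNA and must leave before export, had a lower median than every other role group except the rRNA methyltransferases. Only TEX10 of its 5 genes was called higher, and the median log2 fold change was 0.28, against 0.47 over all 58 factors. TEX10, a scaffold subunit, was at 15.5 and 15.7 FPKM in the FGF2 libraries and 11.8 and 11.9 FPKM in the NC libraries (0.48, 0.41 to 0.56). LAS1L (ENSG00000001497, chromosome X, 65512582 to 65534775), the endonuclease, was at 31.3 and 31.1 FPKM in the FGF2 libraries and 30.8 and 29.9 FPKM in the NC libraries (0.15, 0.09 to 0.20). WDR18 was at 35.3 and 33.8 FPKM in the FGF2 libraries and 33.4 and 33.8 FPKM in the NC libraries, so its groups overlapped (0.09, -0.00 to 0.17). PELP1, another scaffold subunit, was at 29.04 and 29.05 FPKM in the FGF2 libraries and 24.6 and 25.5 FPKM in the NC libraries (0.28, 0.22 to 0.33). SENP3, the SUMO protease that acts on PELP1, was at 10.9 and 10.0 FPKM in the FGF2 libraries and 8.89 and 8.27 FPKM in the NC libraries (0.36, 0.23 to 0.50), with 41.2% of its exon bases shared with SENP3-EIF4A1. By FPKM the ratio of TEX10 to PELP1 was 0.534 and 0.540 in the FGF2 libraries and 0.480 and 0.468 in the NC libraries, and that of WDR18 to PELP1 was 1.22 and 1.16 in the FGF2 libraries and 1.36 and 1.33 in the NC libraries. These transcript ratios differed between the samples, of which there was 1 per group, and they do not measure the subunits in the complex. Whether the complex differs from the other groups was not tested.

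Late factors ride with the particle through export and are released in the cytoplasm. EIF6 (ENSG00000242372, chromosome 20, 35278911 to 35284985), which keeps a pre-60S particle from joining a 40S subunit, was at 112.2 and 102.9 FPKM in the FGF2 libraries and 74.6 and 76.3 FPKM in the NC libraries. SBDS, which takes part in removing EIF6, was at 54.8 and 57.05 FPKM in the FGF2 libraries and 43.1 and 43.2 FPKM in the NC libraries. MRTO4, a placeholder for the stalk protein P0, was at 87.9 and 86.0 FPKM in the FGF2 libraries and 62.55 and 63.3 FPKM in the NC libraries. All 3 were called higher, with log2 fold changes of 0.52 for EIF6 (0.45 to 0.58), 0.49 for SBDS (0.41 to 0.57) and 0.53 for MRTO4 (0.48 to 0.58). EIF6 differed between its read sets, with 0.68 from library 1 and 0.34 from the second read set. The files list 1 pseudogene of SBDS, with 37.0% of the SBDS count in FGF2 library 2 and 37.98% in NC library 2, so reads may be split between the copies and SBDS is uncertain. RSL24D1 (0.51) and the export adaptor gene NMD3 (0.40) were also called higher. ZNF622, homologue of yeast Rei1, was lowest of these 7, at 37.4 and 38.3 FPKM in the FGF2 libraries and 34.9 and 34.1 FPKM in the NC libraries (0.26, 0.16 to 0.36), and it met neither bound. LSG1, the GTPase gene that acts in the release of NMD3, stood at 0.33 (0.24 to 0.41), also short of the bound.

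**Figure D3:**
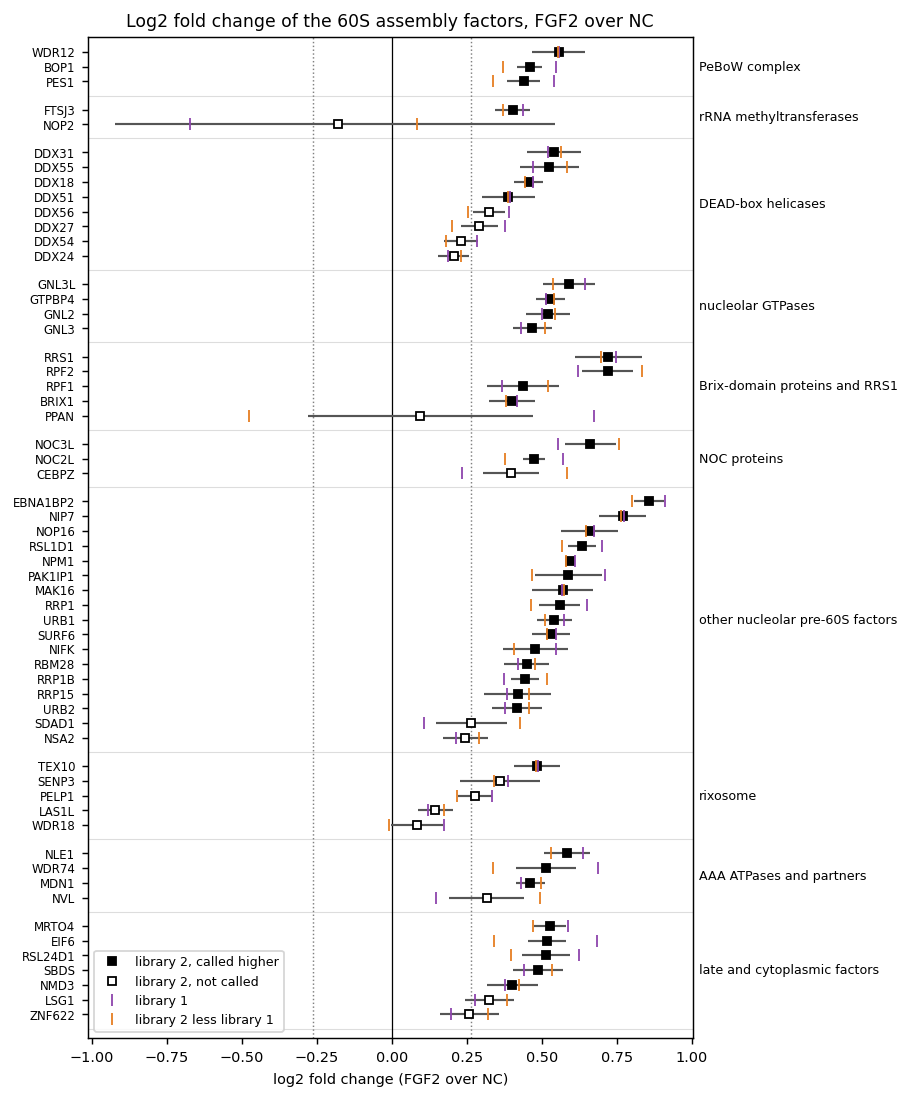
Log2 fold change, FGF2 over NC (x axis), of the 58 factors by role, from both libraries 2 (squares, filled where called higher) with the 95% counting interval (bars), and from the disjoint read sets (ticks). Dotted lines mark 1.2-fold. Squares lie between -0.18 (NOP2) and 0.86 (EBNA1BP2), and the rixosome rows lie left of most others.

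At a bound of 1.5-fold, 5 of the 58 factors were called higher, against 3.9% of all genes kept, and 0 were lower, against 7.9%. They were EBNA1BP2, NIP7, RRS1, RPF2 and NOP16, of which NIP7 and NOP16 are named here after their values were seen. NIP7 was at 25.6 and 26.15 FPKM in the FGF2 libraries and 16.0 and 16.3 FPKM in the NC libraries, and NOP16 at 28.6 and 28.2 FPKM in the FGF2 libraries and 19.2 and 19.0 FPKM in the NC libraries. EBNA1BP2, NIP7 and NOP16 share 18.8%, 20.2% and 20.0% of their exon bases with genes on the opposite strand, which an unstranded library cannot tell apart. The gene opposite EBNA1BP2, CFAP57, had 31 counts in FGF2 library 2 and 10 in NC library 2, and the gene opposite NIP7, COG8, had 400 and 530 counts. Opposite NOP16, HIGD2A had 566 and 582 counts (30.7 and 31.9 FPKM) and ARL10 had 115 and 145 counts in the same libraries. RRS1 shares 11.4% of its exon bases with AC009879.2 on the same strand, which had 0 counts in every library. In all, 16 of the 58 factors share at least 10% of their exon bases with another gene. The other 42 had 31 called higher and 0 lower, with a median of 0.46.

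Other genes of the pathway had medians above 0 of similar or smaller size. Of 28 other large subunit factors kept, 12 were called higher and 0 lower, with a median log2 fold change of 0.32, the highest being CCDC86 (0.78) and the lowest RBM34 (-0.08, from 17 and 19 counts). Of 59 small subunit factors, 42 were called higher and 0 lower, with a median of 0.47, between TSR2 (0.12) and ESF1 (0.76). Of 20 snoRNP proteins, 11 were called higher (0.42), between ZNHIT3 (-0.20) and NOP10 (0.70), and of 15 genes of RNA polymerase I and its factors, 10 (0.40), between UBTF (-0.06) and CD3EAP (0.81). No difference between lists was tested. The ribosomal protein genes, whose products the assembly factors put together, were called higher at a share close to the 12.1% of all genes kept. All of these genes nevertheless had a log2 fold change above 0. Of 47 large subunit proteins, 5 (10.6%) were called higher and 0 lower (median 0.26), between RPL36A (0.02) and RPL17 (1.32), and of 33 small subunit proteins 3 (9.09%) and 0 (0.25), between RPS10 (0.05) and RPS15A (0.59). RPL17 rested on 86 counts in FGF2 library 2 and 36 in NC library 2, and RPS10 on 110 and 112. Other genes share 27.4% of the exon bases of RPL17, 39.4% of RPS10, 45.1% of CD3EAP and 51.5% of RBM34, so these values are uncertain. Both medians of the ribosomal proteins lay above 0.23, the upper quartile of all genes kept. They differed between read sets, with 0.31 and 0.15 for the large subunit and 0.32 and 0.16 for the small subunit, whereas that of the 60S factors was 0.48 and 0.47.

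**Figure D4:**
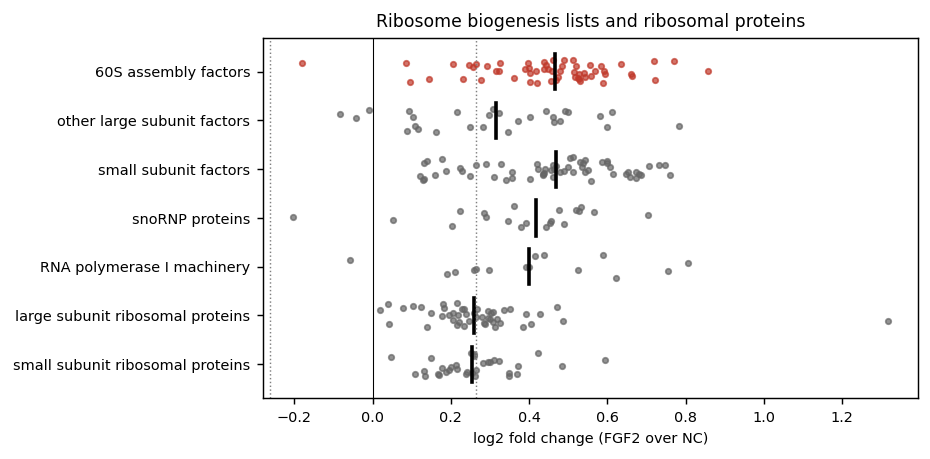
Log2 fold change, FGF2 over NC (x axis), of single genes (points) in the 60S assembly factors (red) and 6 other lists (grey), with the median of each list as a black bar and 1.2-fold as dotted lines. Medians are 0.47 for the 60S factors and between 0.25 and 0.47 for the other lists.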

How the data were processed

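The authors deposited 1 table per library with raw read counts per gene and FPKM values (counts scaled to exon length and library total). Per the submitters' processing notes the tools were HISAT2 and HTSeq 0.13.5 and the build GRCh38, with no annotation release. The FPKM of all 58 genes equalled the deposited count over total count and merged exon length in GENCODE 29, whose coordinates are used. Per the labels' protocols, libraries came from an NEBNext Ultra RNA kit, which does not mark strand.

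Genes were kept with filterByExpr of edgeR 4.0.16 on the 4 libraries, and counts were scaled by TMM. TMM raised log2 fold changes by 0.09 over scaling by total count. Each log2 fold change sets FGF2 library 2 over NC library 2, with scaled counts plus 0.5, with exact Clopper-Pearson intervals. With 1 sample per group no test was run. A named rule gave full values to the highest and lowest gene of each role, all genes of roles of 5 or fewer, and the 10 of highest FPKM in NC library 2. Members and lists were chosen with earlier results of these data known. Alternatives used DESeq2 1.42.0 size factors, other libraries and other bounds.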

Additional observations from a re-analysis of the deposited data

How the results depend on the processing

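The 42 factors called higher and 0 called lower were the same genes with DESeq2 size factors and with no filter on low counts. A minimum mean of 50 counts left 57 factors with the same 42 called higher, and could not alter a call. Scaling by total count gave 35 higher and 0 lower, without GNL3L, EIF6, WDR74, PES1, FTSJ3, BRIX1 and DDX51, and a median log2 fold change of 0.38, because it removes the shift of 0.09. Over all genes kept it gave 1295 higher and 3050 lower, against 1824 and 2443. WDR18, which was not called, turned below 0 with it. The median was 0.37 on log2(FPKM + 1) and 0.47 from library 1. A 1.5-fold bound gave 5 higher. One gene was called lower, so the count was 1, with library 1 of each group (NOP2), the mean of both libraries (NOP2) and library 2 less library 1 (PPAN), each of them with 49 higher. These settings asked for 1 value per group to pass in place of both read sets, so the count of higher calls could hardly fall. The mean of both libraries also gives extra weight to the reads of library 1, which library 2 holds as well. Leaving out 1 library gave 43 to 46 higher and 0 to 1 lower (NOP2, without FGF2 library 2), with a median of 0.46 to 0.47. Leaving out library 1 of a group kept its reads within library 2, so those fold changes were the reported ones. A lone library also had to pass in place of both read sets of its group, so the count of higher calls could hardly fall. No called factor changed direction under these alternatives. The call rule already fixes the direction in both read sets, so this is not a separate check. No paired analysis was possible because the libraries of a group share reads, each group is 1 sample and the results come from no test. Comparing read sets of the same number only gave 44 higher and 0 lower, under a looser rule that every factor called higher already meets. NOP2 and PPAN had low counts and share more than 50% of their exon bases with other genes of the same strand, and the parts of depth and shared exons in their lack of a direction were not tested.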
